A study of Homo sapiens with 12 samples.

Results

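The plasminogen system, the matrix metalloproteases and their tissue inhibitors were followed through 9 genes: PLAU, PLAUR, PLAT, MMP1, MMP7, MMP14, TIMP1, TIMP2 and TIMP3. The genes were chosen by name, with earlier results of these data known. All 9 were found by their Ensembl identifiers among the 59424 genes of each cell line's table. RNA was sequenced from 12 libraries, 3 biological replicates in each of 4 groups. CWR22Rv1 cells, a prostate cancer line with androgen receptor, carried a lentiviral control shRNA (shControl) or a lentiviral shRNA against GALNT7 (GALNT7 KD). DU145 cells, a prostate cancer line without androgen receptor, carried a lentiviral control open reading frame (OE control) or the GALNT7 open reading frame (GALNT7 OE). All 4 groups are stably transduced cultures, so the controls carry a lentiviral vector too, and each comparison rests on a single cell line. GALNT7 is a Golgi enzyme of O-linked glycosylation. It adds the sugar GalNAc to proteins on which other enzymes of its family have already placed GalNAc. The comparisons ask how lowering or raising GALNT7 alters the transcripts of prostate cancer cells.

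PLAU encodes urokinase (uPA) and PLAT encodes tissue-type plasminogen activator (tPA), the serine proteases that convert plasminogen into plasmin. PLAUR encodes the urokinase receptor, which holds urokinase at the cell surface. Plasmin cleaves fibrin and matrix proteins and can activate latent metalloproteases, of which MMP1 is the interstitial collagenase, MMP7 is matrilysin and MMP14 is the membrane-anchored collagenase MT1-MMP. TIMP1, TIMP2 and TIMP3 encode secreted inhibitors that block the active site of these enzymes, and TIMP2 also bridges MMP14 to latent MMP2 when MMP2 is activated. In prostate cancer this system is studied for its part in invasion through the extracellular matrix.

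The stretches before the start sites of 4 members are shown because their transcripts changed in these cells, PLAU and MMP14 in DU145 and PLAUR and TIMP3 in CWR22Rv1. Sequences are from RefSeq (GRCh38.p14), read 5′ to 3′ on the strand of the gene, and 6 of the 9 members had an entry. PLAT, MMP1 and TIMP2 had none. Capitals mark matches, on either strand, to a GC box (GGGCGG, the core bound by Sp1-type factors) or to an AP-1 site (TGANTCA, bound by JUN and FOS proteins). The 2 longer stretches, MMP14 at chr14:22836335-22836556 and TIMP3 at chr22:32801455-32801700, end where the first annotated exon begins, and the 2 shorter ones show 30 bases around a match, PLAU at chr10:73911072-73911101 and PLAUR at chr19:43670337-43670366.
PLAU: gagagggagGGGCGGcgccgGGGCGGgccc
PLAUR: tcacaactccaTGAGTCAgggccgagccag
MMP14: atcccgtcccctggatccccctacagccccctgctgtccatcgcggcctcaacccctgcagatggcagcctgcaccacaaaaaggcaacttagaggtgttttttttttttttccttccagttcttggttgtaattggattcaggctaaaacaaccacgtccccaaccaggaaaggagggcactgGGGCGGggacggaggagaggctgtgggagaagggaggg
TIMP3: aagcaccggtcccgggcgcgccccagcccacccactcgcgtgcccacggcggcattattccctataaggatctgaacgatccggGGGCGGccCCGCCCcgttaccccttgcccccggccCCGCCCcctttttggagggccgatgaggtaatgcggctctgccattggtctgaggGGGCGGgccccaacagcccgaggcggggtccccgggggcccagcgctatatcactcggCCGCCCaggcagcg

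The PLAU and PLAUR windows lie within annotated exons over all 250 bases, so only 30 bases of each are shown. PLAU has another RefSeq start, whose window (chr10:73910360-73910609) also lies within annotated exons and held no match. The PLAU stretch shown holds a pair of GC boxes, at -51 and -40 from its RefSeq start. A further one lies at -66, outside the bases shown. MMP14 holds a single GC box, at -66. TIMP3 holds 5, at -166, -158, -131, -76 and -18, of which those at -158, -131 and -18 read on the opposite strand. PLAUR holds an AP-1 match at -186. Of the other entries, MMP7 had an AP-1 match at -67 and a TATA box (TATAAA) at -30, and TIMP1 had GC boxes at -135 and -45 on the opposite strand. Over all 35116 RefSeq windows of 250 bases before a start, 42.64% hold a GC box, 6.573% an AP-1 match and 10.72% a TATA box. A match describes the letters of the window only.

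On GRCh38 with GENCODE release 29, PLAU (ENSG00000122861) lies at chr10:73909177-73917497 on the plus strand and PLAUR (ENSG00000011422) at chr19:43646095-43670547 on the minus strand. PLAT (ENSG00000104368) lies at chr8:42175233-42207724 on the minus strand. MMP7 (ENSG00000137673, chr11:102520508-102530753) and MMP1 (ENSG00000196611, chr11:102789920-102798160) lie on the minus strand of the same arm, in the metalloprotease cluster. MMP14 (ENSG00000157227) lies at chr14:22836557-22849027 on the plus strand. TIMP2 (ENSG00000035862) lies at chr17:78852977-78925387 on the minus strand. TIMP1 (ENSG00000102265, chrX:47582313-47586789) and TIMP3 (ENSG00000100234, chr22:32801701-32863043) lie on the plus strand, each inside a synapsin gene of the opposite strand (SYN1 and SYN3). All 9 are protein-coding genes.

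Values are normalised counts, the reads of a gene divided by a size factor of its library. The recovered depth was 18364512 to 24356910 reads per library, and intervals and floors given for reads cover counting error only. The target behaved as labelled: GALNT7 was at 399.7 to 501.4 in GALNT7 KD against 861.5 to 1093.2 in shControl libraries, and at 1988.5 to 2333.8 in GALNT7 OE against 912.8 to 1050.9 in OE control libraries. The sum of 7 markers of androgen receptor positive luminal cells ranged from 24455 to 27554 in CWR22Rv1 and from 571 to 951 in DU145 libraries, with KLK3 at 0 throughout DU145. The sum of 6 markers of DU145-like cells ranged from 68.3 to 188 in CWR22Rv1 and from 65624 to 77943 in DU145 libraries, and KRT5 of that list was at 0 in both lines. In bulk RNA, fewer cells of a type and less RNA per cell cannot be told apart.

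**Figure D1:**
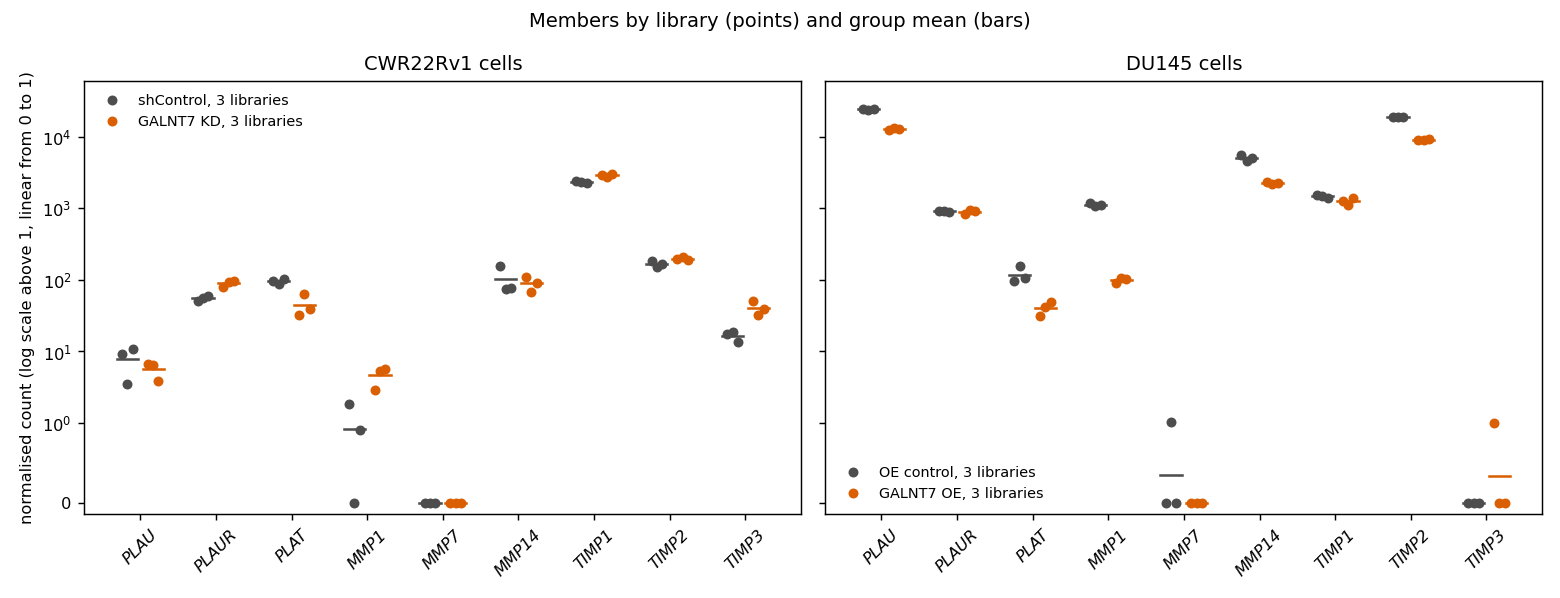
Normalised count of each member (vertical axis, logarithmic above 1 and linear from 0 to 1) in CWR22Rv1 cells (left) and DU145 cells (right), with 1 point for each library and a bar at the group mean. In DU145 cells the GALNT7 OE points of PLAU, PLAT, MMP1, MMP14 and TIMP2 lie below every OE control point, and in CWR22Rv1 cells the GALNT7 KD points of PLAUR, TIMP1, TIMP2 and TIMP3 lie above every shControl point.

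The lines differed in which members they expressed. Per kilobase of exon, the OE control DU145 cells had PLAU highest at 8211 ± 131 (SD, n=3) normalised counts, followed by TIMP2 at 3325 ± 30.9, MMP14 at 1131 ± 104, TIMP1 at 954 ± 51.1, MMP1 at 570 ± 25.7, PLAUR at 203 ± 4.22 and PLAT at 18.0 ± 4.83. In that order no pair of neighbours overlapped between libraries. MMP7 was detected by 1 read in 1 OE control library and TIMP3 by 1 read in 1 GALNT7 OE library, and they were at 0 in the other DU145 libraries.

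In shControl CWR22Rv1 cells TIMP1 stood first, at 1512 ± 52.4 (SD, n=3) normalised counts per kilobase. TIMP2 at 29.6 ± 2.66 and MMP14 at 22.8 ± 10.3 overlapped between libraries, as did PLAT at 14.5 ± 1.28 and PLAUR at 12.5 ± 1.13, and TIMP3 at 3.62 ± 0.561 and PLAU at 2.70 ± 1.33. MMP1 followed at 0.471 ± 0.474, and MMP7 was at 0 in all 6 libraries. Scaled to a library of 1000000 reads (RPM), PLAU was at 1082 to 1111 in OE control DU145 libraries and at 0.180 to 0.558 in shControl CWR22Rv1 libraries. TIMP2 was at 837 to 855 and 7.68 to 9.18 RPM in the same groups. These levels come from tables that were normalised separately, and the difference between the lines was not tested. A count of 0 reads allows up to 3 reads, which is 0.123 to 0.163 RPM in these libraries.

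With GALNT7 overexpressed in DU145 cells, most of the members that the line expressed were lower. Transcripts for urokinase, tPA, the collagenases MMP1 and MMP14 and the inhibitor TIMP2 fell, whereas the changes of the urokinase receptor and TIMP1 did not pass the test. Of the 9 members 7 were tested, and 5 of them passed limma's threshold (adjusted p under 0.05), all lower, where 43.5% of all 18705 genes tested passed, 20.5% lower and 22.9% higher. Of all calls 52.75% were higher, and 41.65% with rescaling to the 75th percentile. The groups did not overlap for 5 of the 7, against 55.3% of all genes. The median log2 fold change of the 7 was -1.05, and that of all genes was -0.01. The members were chosen with earlier results of these data known, so these shares are a description only.

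PLAU, the most abundant member, had normalised counts of 24047, 23951 and 24666 in the OE control and 12315, 13142 and 12678 in GALNT7 OE libraries. Each group was tight and every GALNT7 OE library lay far below every control library. The mean of 24221 ± 388 fell to 12711 ± 414 (SD, n=3), a 1.91-fold difference and a log2 fold change of -0.93 (95% interval -1.01 to -0.85, limma adjusted p=5.2e-06). PLAU shares 916 exonic bases with C10orf55 on the opposite strand, which was at 75.6 to 116 in DU145 libraries.

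PLAUR, whose product binds urokinase, had 921, 914 and 886 normalised counts in the OE control and 841, 954 and 907 in GALNT7 OE libraries. The GALNT7 OE libraries spread to either side of the controls. The log2 fold change was -0.01 (95% interval -0.18 to 0.15, limma adjusted p=0.908), so that the interval leaves room for a change of at most 0.18 in size on this scale. For every PLAUR read there were 26.1, 26.2 and 27.9 PLAU reads in the OE control and 14.6, 13.8 and 14.0 in GALNT7 OE libraries. The ratios did not overlap (exact permutation test, two-sided p=0.1, which is the lower limit with 3 libraries a group). This ratio was chosen after the values were seen.

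PLAT, the tPA gene, was a minor transcript, with 96.4, 155 and 105 normalised counts in the OE control and 31.1, 41.6 and 49.3 in GALNT7 OE libraries. The second control library was highest, and the groups were still apart without it. The mean fell from 119 ± 31.9 to 40.7 ± 9.15 (SD, n=3), 2.92-fold, with a log2 fold change of -1.52 (95% interval -2.12 to -0.91, limma adjusted p=0.00311).

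MMP1 changed most among the members. Its normalised counts were 1175, 1074 and 1119 in the OE control and 90.2, 105 and 104 in GALNT7 OE libraries. The groups lay farther apart than for any other member. The means of 1123 ± 50.7 and 99.8 ± 8.34 (SD, n=3) differed 11.3-fold, a log2 fold change of -3.48 (95% interval -3.71 to -3.25, limma adjusted p=2.85e-06). These values rest on 3392 reads in the control group and 303 in the GALNT7 OE group. WTAPP1, which shares 150 exonic bases with MMP1 on the opposite strand, did not exceed 1.07 in any library.

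MMP14, the membrane-anchored collagenase, had 5510, 4586 and 5052 normalised counts in the OE control and 2324, 2207 and 2273 in GALNT7 OE libraries. Its controls varied more than its GALNT7 OE libraries, without any overlap. It fell 2.23-fold, from 5049 ± 462 to 2268 ± 58.9 (SD, n=3), or -1.15 on the log2 scale (95% interval -1.32 to -0.98, limma adjusted p=3.99e-05).

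Among the inhibitors, TIMP2 had 18684, 18922 and 18582 normalised counts in the OE control and 8985, 9056 and 9186 in GALNT7 OE libraries. Replicates of each group were close together and the groups were wide apart. The fall was 2.06-fold, from 18729 ± 174 to 9076 ± 102 (SD, n=3), or -1.05 on the log2 scale (95% interval -1.11 to -0.98, limma adjusted p=2.62e-06). CEP295NL shares 198 exonic bases with TIMP2 on the same strand and did not exceed 3.15. MMP14 and TIMP2, which act together on MMP2, moved by similar amounts: the MMP14 to TIMP2 ratio of reads was 0.295, 0.242 and 0.272 in the OE control and 0.259, 0.244 and 0.247 in GALNT7 OE libraries, and these ranges overlapped (exact permutation test, two-sided p=0.4, chosen after the values were seen).

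TIMP1 had 1523, 1506 and 1379 normalised counts in the OE control and 1259, 1123 and 1387 in GALNT7 OE libraries. The highest GALNT7 OE library lay just above the lowest control library. The log2 fold change was -0.23 (95% interval -0.44 to -0.02, limma adjusted p=0.0781). It passed the threshold in 3 alternatives, at -0.33 with rescaling to the 75th percentile, at -0.34 with quantile normalisation and at -0.30 without GALNT7 OE replicate 3, and its adjusted p ranged from 0.0207 to 0.197 over all 16 alternatives.

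**Figure D2:**
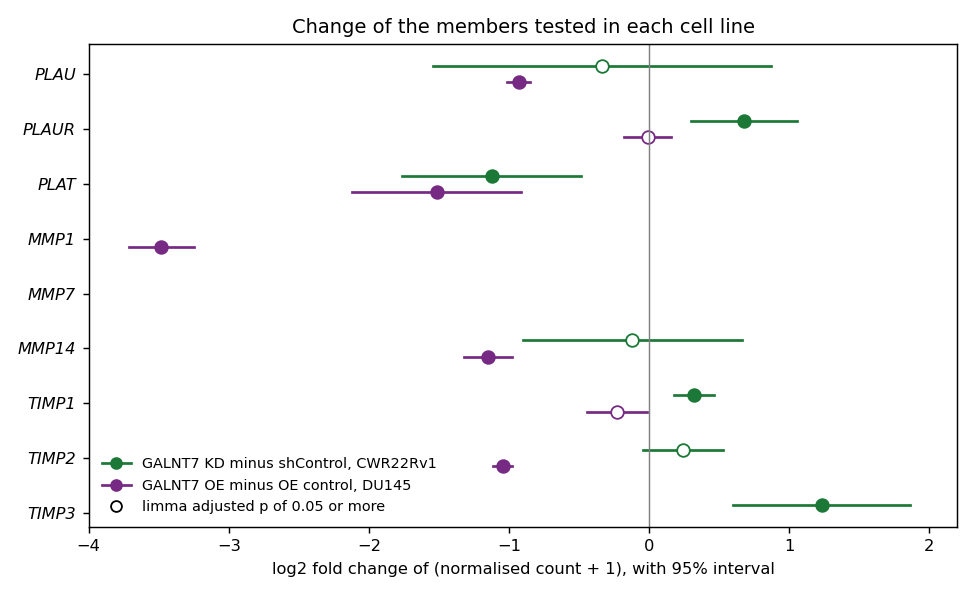
Log2 fold change of (normalised count + 1) with its 95% interval (horizontal axis) for each member tested, after GALNT7 knockdown in CWR22Rv1 cells (green) and GALNT7 overexpression in DU145 cells (purple), with open circles for limma adjusted p of 0.05 or more. After overexpression 5 members lie wholly below 0, MMP1 the farthest at -3.48, and after knockdown PLAUR, TIMP1 and TIMP3 lie above 0 and PLAT below it.

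With GALNT7 knocked down in CWR22Rv1 cells the changes were smaller and rested on fewer reads. Transcripts for the urokinase receptor, TIMP1 and TIMP3 rose, and the tPA transcript fell. Of the 9 members 7 were tested, and 4 passed limma's threshold, 3 higher and 1 lower, where 9.06% of all 17906 genes tested passed, 5.28% higher and 3.79% lower. For 5 of the 7 the groups did not overlap, against 32.5% of all genes. The median log2 fold change of the 7 was 0.24, and that of all genes was -0.01. These shares too describe members chosen with earlier results of these data known.

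PLAUR had 50.4, 55.7 and 60.4 normalised counts in shControl and 80.2, 92.8 and 95.4 in GALNT7 KD libraries. All of the knockdown libraries were above all of the controls. The mean rose 1.61-fold, from 55.5 ± 5.02 to 89.5 ± 8.09 (SD, n=3), or 0.68 on the log2 scale (95% interval 0.30 to 1.06, limma adjusted p=0.0466).

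PLAT had 97.1, 86.6 and 104 normalised counts in shControl and 31.9, 64.0 and 39.5 in GALNT7 KD libraries. Knockdown replicate 2 was the highest of its group and still lay below the lowest control. The mean fell 2.12-fold, from 95.7 ± 8.49 to 45.1 ± 16.8 (SD, n=3), or -1.12 on the log2 scale (95% interval -1.77 to -0.48, limma adjusted p=0.0494).

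PLAU was close to undetected in this line, with 9.3, 3.5 and 11 normalised counts in shControl and 6.8, 6.4 and 3.9 in GALNT7 KD libraries. The groups overlapped, on 26 and 17 reads in all. The log2 fold change of -0.34 had a wide interval, from -1.54 to 0.87 (limma adjusted p=0.728), so a change as large as the one seen in DU145 cells was not detectable at this depth.

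MMP1 was too low to test, with 3 reads over the shControl libraries and 14 over the GALNT7 KD libraries. The normalised counts of 1.9, 0 and 0.9 in shControl were below those of 2.9, 5.3 and 5.8 in GALNT7 KD libraries. Relative to depth the ratio was 5.12, with an exact 95% counting interval of 1.43 to 27.8. MMP14 had 155, 74.3 and 76.0 normalised counts in shControl and 110, 68.3 and 90.5 in GALNT7 KD libraries. The first control library stood well above the other two, and the groups overlapped. Its log2 fold change of -0.12 (95% interval -0.90 to 0.66, limma adjusted p=0.861) became 0.23 without shControl replicate 1 and 0.06 without GALNT7 KD replicate 2, so its direction depended on single libraries.

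TIMP1, the member with most reads in CWR22Rv1 cells, had 2412, 2325 and 2250.5 normalised counts in shControl and 2951, 2746 and 3040 in GALNT7 KD libraries. Every knockdown library was above every control. The rise was 1.25-fold, from 2329 ± 80.7 to 2912 ± 151 (SD, n=3), or 0.32 on the log2 scale (95% interval 0.18 to 0.46, limma adjusted p=0.0223).

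TIMP2 had 181, 151 and 168 normalised counts in shControl and 195, 208 and 187 in GALNT7 KD libraries. The groups did not overlap but lay close together. The log2 fold change of 0.24 (95% interval -0.04 to 0.52) did not pass the test (limma adjusted p=0.258).

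TIMP3, which unlike the other inhibitors binds tightly to the matrix, had 17.7, 18.6 and 13.7 normalised counts in shControl and 51.2, 32.0 and 39.5 in GALNT7 KD libraries. The lowest knockdown library was clearly above the highest control. The mean rose 2.45-fold, from 16.7 ± 2.58 to 40.9 ± 9.70 (SD, n=3), or 1.23 on the log2 scale (95% interval 0.60 to 1.86, limma adjusted p=0.0368).

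These knockdown calls lay near the threshold, whereas their directions did not turn in any of the settings tried. PLAUR and TIMP3 failed the threshold whichever of the 6 libraries was left out, with adjusted p of 0.0931 to 0.143 and 0.0510 to 0.120. PLAT passed only without GALNT7 KD replicate 2, and its adjusted p was 0.0219 to 0.146 with a library left out. TIMP1 passed only without GALNT7 KD replicate 2 or 3, and its adjusted p was 0.0295 to 0.0893. With a replicate block in the fit none of these members passed, at limma adjusted p of 0.0532 to 0.0879. The 5 members called in DU145 passed in all 6 leave-one-out fits and in the 9 other settings shown for knockdown.

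**Figure D3:**
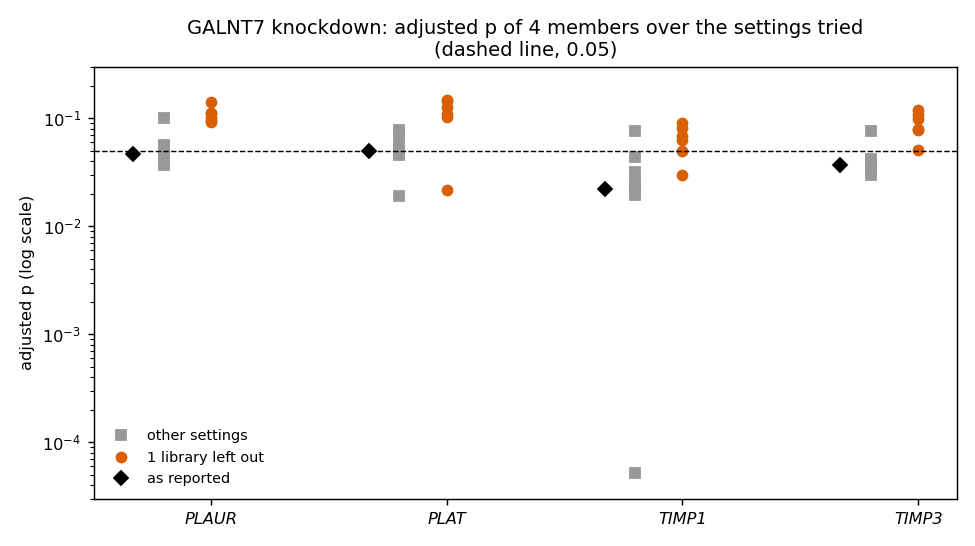
Adjusted p (vertical axis, logarithmic) of the 4 members called after GALNT7 knockdown, as reported (black), with 1 library left out (orange) and in 9 other settings of filter, pseudocount, scaling or test (grey), with a dashed line at 0.05; the fit with a replicate block is not drawn. The reported values lie between 0.0223 and 0.0494, and most points with a library left out lie above the line. The values with the replicate block, 0.0532 to 0.0879, would all lie above it.

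PLAT was the member called in both comparisons, and it was lower in both although GALNT7 itself moved in opposite directions. Its log2 fold changes were -1.12 after knockdown and -1.52 after overexpression, on 315 and 134 reads in CWR22Rv1 and 357 and 123 reads in DU145 cells. The PLAT call after knockdown was near the threshold (limma adjusted p=0.0494) and held in 7 of 16 alternatives. The tables were normalised separately and the difference between the comparisons was not tested. Over the 12 libraries, after centring each cell line, the genes most like PLAT among 11816 compared included STX7 (Pearson r=0.959) and TAPBPL (r=0.948). These values describe libraries that share the same groups, so part of the likeness is the group difference itself.

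Around the members, 24 other genes of the plasminogen system were counted: 18 were tested in DU145 and 16 in CWR22Rv1 cells. After overexpression 5 were higher and 9 lower (median log2 fold change -0.67). That is 27.8% higher and 50% lower, against 22.9% and 20.5% of all genes tested. S100A10, a subunit of a surface receptor for plasminogen, rose from 1488 ± 22.1 to 6874 ± 73.5 (SD, n=3), 4.62-fold. VTN, vitronectin, a matrix ligand of the urokinase receptor, fell from 337 ± 13.7 to 36.3 ± 22.2 (9.27-fold). TFPI2, a matrix-bound inhibitor of plasmin and other serine proteases, fell from 2574 ± 34.5 to 410 ± 65.8 (6.28-fold), and THBD, thrombomodulin, fell from 682 ± 8.11 to 141 ± 17.3 (4.82-fold). The limma adjusted p of these 4 genes ranged from 5.81e-07 to 0.00107.

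After knockdown 3 of the plasminogen genes tested were higher and 2 lower (median log2 fold change -0.09). Together these were 31.2% of those tested, against 9.06% of all genes. SERPINE2, protease nexin-1, an inhibitor of urokinase and thrombin, rose from 980 ± 9.65 to 1561 ± 103 (SD, n=3, limma adjusted p=0.00351). SERPINI1, neuroserpin, an inhibitor of tPA, rose from 166 ± 4.65 to 301 ± 30.8 (adjusted p=0.0084). KLK4, a prostate serine protease, fell from 9583 ± 260 to 7581 ± 464. In shControl libraries there were 0.571, 0.538 and 0.617 PLAT reads for each SERPINI1 read, and 0.0951, 0.231 and 0.137 in GALNT7 KD libraries. The ratios did not overlap (exact permutation test, two-sided p=0.1, again the lower limit, chosen after the values were seen).

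Some genes of this system were looked up for their known roles after the values had been seen. SERPINE2 and SERPINI1 fell in DU145 cells with GALNT7 overexpressed, by 1.15 and 1.01 on the log2 scale, where they had risen after knockdown in CWR22Rv1 cells. PLG, which encodes plasminogen itself, did not exceed 5.60 normalised counts in any library. ANXA2, the partner of S100A10 in the plasminogen receptor, rose in DU145 cells from 27037 ± 383 to 37478 ± 1232 (SD, n=3).

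Few other metalloproteases were expressed, although MMP16 and MMP15 stood above MMP14 in CWR22Rv1 cells. There MMP16 was at 2076 ± 183 in shControl and 1816 ± 276 in GALNT7 KD libraries (SD, n=3). MMP15 was at 1489 ± 187 and 1382 ± 214 in the same groups. Of the other 19 members of the MMP family with an identifier in the tables, 6 were tested in CWR22Rv1 cells and none passed limma's threshold, with 1 at an unadjusted p under 0.05 and 0 called by edgeR or DESeq2. Of all genes 9.06% passed limma's threshold in that line. In DU145 cells 7 were tested, and 4 were lower and 0 higher (median log2 fold change -0.97). Lower calls were 57.1% of the 7, against 20.5% of all genes. There edgeR called 4 lower and DESeq2 called 2. MMP24 fell from 3344 ± 137 to 920 ± 45.6 (SD, n=3), MMP15 from 2402 ± 249 to 909 ± 20.3 and MMP17 from 214 ± 22.6 to 162 ± 17.1. Their limma adjusted p was 3.8e-06, 3.01e-05 and 0.0439. With the replicate block MMP17 did not pass (limma adjusted p=0.0958). The gelatinases, again looked up after the values were seen, were near 0: MMP2 did not exceed 2.90 and MMP9 did not exceed 3.07 normalised counts in any library.

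Among 13 other metalloprotease inhibitors and cofactors, 12 were tested in DU145 cells. Of these 7 were lower (58.3%) and 0 higher, against 20.5% and 22.9% of all genes. In CWR22Rv1 cells 9 were tested, with 2 higher and 1 lower (33.3% called), against 9.06% of all genes. LCN2, lipocalin-2, which binds MMP9 and keeps it from being degraded, fell from 6968 ± 163 to 32.8 ± 5.68 (SD, n=3) after overexpression. CD44, a hyaluronan receptor that can dock metalloproteases, fell from 6401 ± 194 to 4146 ± 327, and the tetraspanin CD151 from 9117 ± 116 to 4797 ± 215. CD151 also fell after knockdown, from 2574 ± 81.1 to 2083 ± 175 (limma adjusted p=0.0487). With the replicate block this call was lost (limma adjusted p=0.0537). PCOLCE, an enhancer of procollagen processing, rose after knockdown from 56.6 ± 6.97 to 117 ± 10.4.

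**Figure D4:**
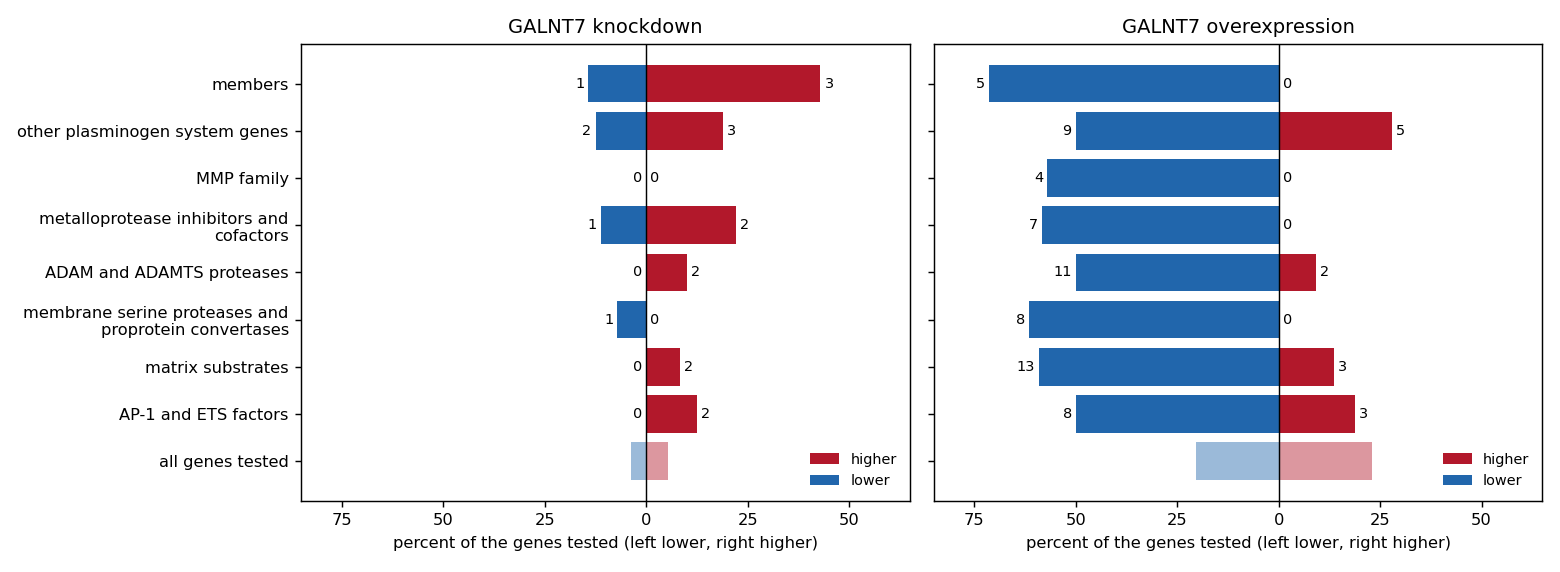
Share of the tested genes of each list that passed limma's threshold lower (blue, left) or higher (red, right) after GALNT7 knockdown (left panel) and GALNT7 overexpression (right panel), with the number of genes beside each bar and all genes tested in pale bars. After overexpression the lower share was 50% to 71.4% over the members and lists against 20.5% of all genes. The higher share there was 0% to 27.8% against 22.9%. After knockdown no list had more than 5 genes called. The called share was then 0% to 33.3% over the lists and 57.1% for the members, against 9.06% of all genes. The members and lists were chosen with earlier results of these data known.

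Proteases of other families were counted in the same way. Of 22 ADAM and ADAMTS proteases tested in DU145 cells 11 were lower (50%) and 2 higher (9.09%). Of all genes 20.5% were lower and 22.9% higher. ADAM8 fell from 2559 ± 213 to 451 ± 65.2 (SD, n=3), ADAMTS15 from 1352 ± 38.8 to 455 ± 21.4 and ADAMTS7 from 199 ± 17.5 to 89.0 ± 4.51, whereas ADAM12 rose from 108 ± 52.3 to 240 ± 16.8. Of 13 membrane serine proteases and proprotein convertases 8 were lower (61.5%) and 0 higher. FURIN, a convertase that cleaves the propeptide of MMP14, fell from 3923 ± 261 to 2561 ± 314 (limma adjusted p=0.0025), SPINT1, a membrane inhibitor of serine proteases, from 1548 ± 91.0 to 448 ± 37.4, PRSS22 from 102 ± 3.72 to 15.7 ± 5.18, and DPP4 from 281 ± 47.2 to 132 ± 60.0. After knockdown, 2 of 20 ADAM and ADAMTS proteases were higher (10%), ADAM9 (1.31-fold) and ADAM15 (1.27-fold). Of 14 membrane serine proteases and convertases 1 was lower (7.14%), TMPRSS2, an androgen-regulated serine protease, from 261 ± 41.7 to 90.6 ± 16.7. Both shares are near the 9.06% of all genes called after knockdown.

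Substrates of these enzymes were counted as well. In DU145 cells 13 of 22 matrix genes tested were lower and 3 higher after overexpression (median log2 fold change -0.54). That is 59.1% lower and 13.6% higher, against 20.5% and 22.9% of all genes. COL1A1, the chain of type I collagen that MMP1 cleaves, fell from 334 ± 73.6 to 90.6 ± 55.4 (SD, n=3), FBN1, fibrillin-1, from 322 ± 80.1 to 105 ± 36.3, and FN1, fibronectin, from 1717 ± 24.6 to 662 ± 94.2. The basement membrane gene COL4A5 rose in DU145 from 21.7 ± 8.67 to 115 ± 58.8. In CWR22Rv1 cells 2 of 24 were higher after knockdown, FN1 (10111 ± 1199 to 15585 ± 2210) and COL4A5 (788 ± 33.0 to 1307 ± 166). That share of 8.33% is near the 9.06% of all genes called after knockdown.

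Factors of the AP-1 and ETS families, which bind promoters of many protease genes, were the last list. After overexpression 8 of the 16 tested were lower and 3 higher (median log2 fold change -0.20). That is 50% lower and 18.8% higher, against 20.5% and 22.9% of all genes. JUN fell from 3903 ± 195 to 1563 ± 71.2 (SD, n=3), JUNB from 5180 ± 148 to 2068 ± 369, FOSL2 from 9230 ± 757 to 4586 ± 422 and the ETS factor ELF3 from 3824 ± 136 to 923 ± 15.1, with limma adjusted p between 1.78e-06 and 0.000178. The 3 higher factors, named in addition to the 4 largest changes, were FOSL1, ETV4 and ATF3. FOSL1 rose from 1681 ± 73.5 to 3076 ± 192 (SD, n=3), or 0.87 on the log2 scale (limma adjusted p=8.4e-05). ETV4 and ATF3 rose by 0.65 and 0.42 on that scale (limma adjusted p=0.00283 and 0.00436). After knockdown 2 of 16 were higher, ELK3 (199 ± 17.8 to 361 ± 29.5) and ETV1 (1015 ± 97.4 to 1665 ± 99.5). That is 12.5%, close to the 9.06% of all genes called. The members and the lists were not tested against each other.

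**Figure D5:**
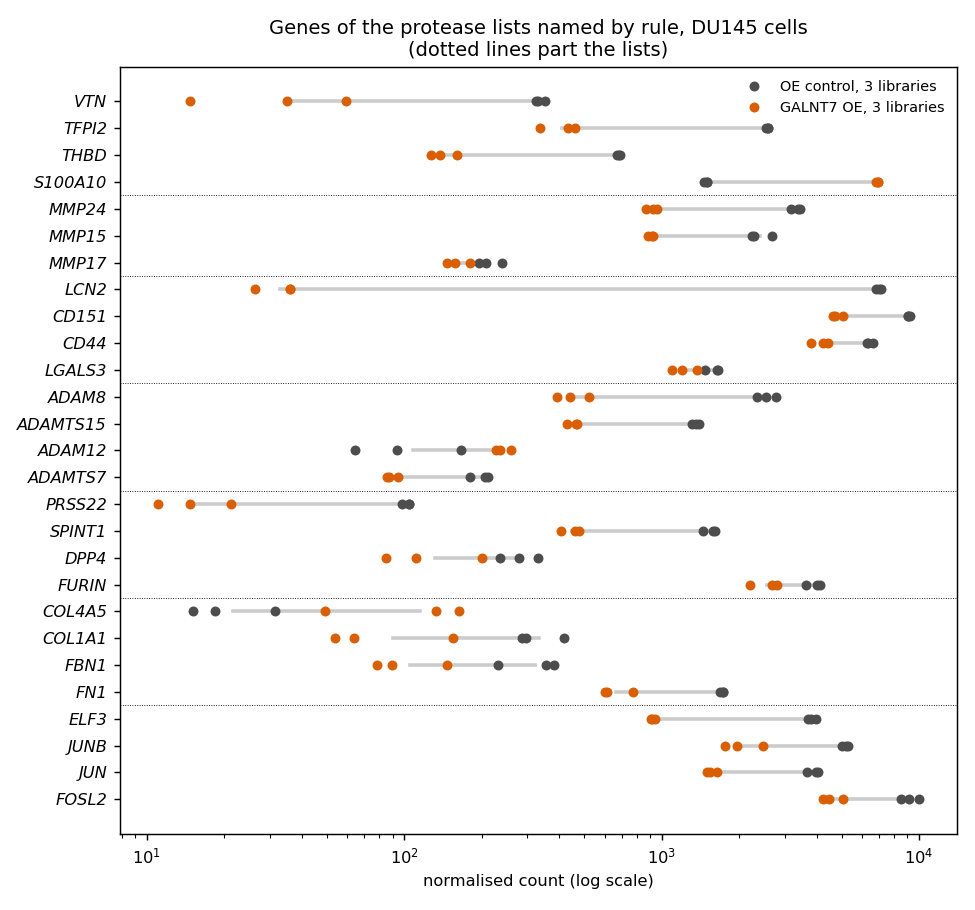
Normalised count (horizontal axis, logarithmic) of the genes named by rule from the 7 lists in DU145 cells, with 1 point for each OE control (grey) and GALNT7 OE (orange) library and dotted lines between the lists. S100A10, ADAM12 and COL4A5 lie higher in GALNT7 OE libraries, and every other gene shown lies lower, LCN2 by the widest gap.

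Markers of other cell types that also express metalloproteases and TIMPs were read beside these results. The summed level of 7 fibroblast markers was 299 to 368 in shControl and 715 to 800 in GALNT7 KD libraries, where 1 of the 6 tested was higher, and 306 to 431 in OE control and 73.0 to 165 in GALNT7 OE libraries, where 1 of the 2 tested was lower. Of all genes tested 5.28% were higher after knockdown and 20.5% lower after overexpression. LUM, a matrix proteoglycan, was the fibroblast marker with most counts in CWR22Rv1 cells and was at 0 throughout DU145. It rose from 225 ± 26.3 in shControl to 626 ± 45.6 in GALNT7 KD libraries (SD, n=3). COL1A1, given above among the matrix genes, made up most of the fibroblast sum in DU145 cells. The sum of 5 leukocyte markers was 108 to 121 in shControl and 121 to 182 in GALNT7 KD libraries, and 2686 to 2853 in OE control and 1019 to 1204 in GALNT7 OE libraries, with CD3E at 0 in all 12 libraries. CD68 made up most of the leukocyte sum in both lines. It was at 113 ± 8.84 in shControl and 152 ± 31.8 in GALNT7 KD libraries (SD, n=3). In DU145 cells CD68 fell from 2675 ± 89.2 to 1035 ± 73.3. The sum of 4 endothelial markers did not exceed 3.87 in CWR22Rv1 libraries and ranged from 14.0 to 55.6 in DU145 libraries. Their part in the changes of the members was not tested.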

How the data were processed

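RNA-seq libraries from CWR22Rv1 cells (shControl, GALNT7 KD) and DU145 cells (OE control, GALNT7 OE) were analysed, with 3 biological replicates per group. The deposited signal is a normalised count per Ensembl gene, made by the authors in 1 table per cell line. The submitters' processing notes name FastQC, Salmon, DESeq2, R 3.5.3 and hg38, and the labels a stranded mRNA kit. Tool versions and the annotation are not given in the sources used here. Every value was a whole multiple (within 0.01) of its library's smallest value above 0, which gave whole reads for 100% of values. Mean chi-square per gene between replicates was 8.774 to 23.68, so each library counted once.

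The 9 members and all gene lists were chosen with earlier results of these data known. Each line was fitted apart in R 4.3.3 with limma 3.58.1 (eBayes with trend) on log2 of the normalised count plus 1, keeping genes whose mean was at least 5, with two-sided Benjamini-Hochberg adjusted p over all genes and a threshold of 0.05. Fold changes on this scale understate changes of low genes, and p-values measure the spread between replicate cultures of 1 line. Genes named from a list passed the threshold, had a mean of at least 50 and no overlap of groups, up to 4 per list and comparison by size of change. The likeness to PLAT was computed among genes with a mean of at least 50 in both tables. Promoter windows span 250 bases. GENCODE release 29, with 94.4% of the identifiers, gave positions and exon lengths. MMP11 was not analysed here. Some genes covered by the rule or the lists are not reported here, although the counts include them. The tests were tried on simulated counts. Alternatives were other pseudocounts (0.5 and 5), filters (none, 20), scalings, eBayes without trend, a replicate block, each library left out, a threshold of 0.01, and edgeR 4.0.16 and DESeq2 1.42.0 on the recovered reads.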

Additional observations from a re-analysis of the deposited data

How the results depend on the processing

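In DU145 cells the 5 members called stayed called with the same sign in all 16 alternatives, and 5 or 6 members were called. Genes called numbered 6749 to 7610 with 1 library left out, and 5303 at a threshold of 0.01 against 8132. Rescaling to the 75th percentile shifted the median of all DU145 genes to -0.11, and the share of calls that were higher was 41.65% there against 52.75%. Relative to that shift the 5 members were still lower. In CWR22Rv1 cells the 4 members called became 0 at a threshold of 0.01, 1 with no filter on low values, 2 with edgeR, 2 with eBayes without trend, 0 with the replicate block, and 0 to 2 with 1 library left out. Genes called numbered 1623 as reported, 392 at 0.01, 2642 with DESeq2, 996 without trend, 1002 with the replicate block and 525 to 1332 with 1 library left out. Fewer samples enter each leave-one-out fit, and for the other settings the cause was not tested. With 1 library left out MMP14 after knockdown ranged from -0.30 to 0.23, reversed without shControl replicate 1 (0.23) and GALNT7 KD replicate 2 (0.06), and PLAUR after overexpression ranged from -0.054 to 0.037, reversed without GALNT7 OE replicate 1. These 2 results had not passed the test.

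Samples with the same replicate number deviated together only weakly, with correlations of -0.01, 0.07 and -0.01 in CWR22Rv1 and 0.04, 0.04 and 0.02 in DU145 cells. In CWR22Rv1 1 of 3 controls correlated best with its own number, and in DU145 cells 3 of 3 did. The lines differed in this, so whether the numbers pair the samples was not settled. The fit as reported did not pair them. With the replicate block the adjusted p after knockdown was 0.0835 for PLAUR, 0.0879 for PLAT, 0.0532 for TIMP1 and 0.0763 for TIMP3. All 4 calls were lost there. In DU145 cells 2 other MMP family genes were lower with the block, against 4. Of the other plasminogen system genes 3 were called after knockdown with the block, against 5. Over all 16 alternatives the adjusted p of these 4 members after knockdown ranged from 0.0371 to 0.143, 0.019 to 0.146, 5.25e-05 to 0.0893 and 0.0299 to 0.12. Few reads limit PLAU, MMP1, MMP7 and TIMP3 in CWR22Rv1 and MMP7 and TIMP3 in DU145 cells.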

Other observations

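The urokinase to SERPINE2 ratio of reads in DU145 cells was 35.7, 39.9 and 40.5 in OE control and 43.1, 51.0 and 41.5 in GALNT7 OE libraries. Both transcripts fell, and the ratios did not overlap (exact permutation test, two-sided p=0.1, the lower limit with 3 libraries a group). The tPA to SERPINI1 ratio in the same libraries was 0.380, 0.503 and 0.348 against 0.226, 0.269 and 0.362, which overlapped (exact permutation test, two-sided p=0.2). These ratios were chosen after the values were seen, among 10 computed.

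LRP1, an endocytic receptor of the plasminogen system, varied widely between replicates of shControl CWR22Rv1 cells, at 70.0, 937 and 574 normalised counts, and was at 142, 181 and 320 in GALNT7 KD libraries (limma adjusted p=0.668). In DU145 cells LRP1 fell from 7662 ± 1042 to 4935 ± 1201 (SD, n=3, limma adjusted p=0.0263). TFPI, an inhibitor of tissue factor, fell in DU145 cells from 11071 ± 239 to 4174 ± 332 (SD, n=3) and was at 25.2 to 50.1 in CWR22Rv1 libraries. These genes were singled out after their values were seen.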
